A study of Mus musculus with 18 samples.

Results

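Atoh1 and 9 further regulators of the secretory lineage of the gut were followed across 3 sorted cell populations of the mouse intestine. The members, Atoh1, Gfi1, Spdef, Sox9, Sox4, Hes6, Cbfa2t3, Klf4, Foxa1 and Foxa2, were chosen by gene symbol for their known place in this lineage, and all 10 were measured among 16358 genes. The gene value on an array was the median log2 RMA signal over the probe sets that carry that symbol and no other, and the members had 105 such probe sets in all. RMA corrects the background, makes the distributions of single-probe signals alike across arrays and summarises the probes of each probe set. The summarised values need not be alike in distribution, and here their medians differed between arrays. A difference of 1 on this scale is a 2-fold difference in signal. Array signals differ between probes for reasons other than RNA level, so no gene is set against another by its level.

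The samples came from 6 female mice, 99 to 109 days old, whose strain is labelled H2B-YFP and which carried the Cyp1a1-H2B-YFP transgene. In every mouse the fluorescent histone had been induced with βNF (beta-naphthoflavone) 10 days before the cells were taken, so all 3 populations share the transgene and the treatment, and no uninduced mouse was analysed here. From each mouse, 30000 cells were sorted for each population with an antibody to CD24, the lectin UEA-1 and YFP fluorescence: Paneth cells were CD24+/UEA+, YFP-LRCs (label-retaining cells) CD24+/UEA-/YFP+, and LCCs CD24+/UEA-/YFP-. The study set out to find markers that distinguish the populations, and hybridised every sample to its own Mouse Exon 1.0 ST array, which made 18 arrays. The label is driven by the Cyp1a1 promoter, so the YFP- gate cannot tell cells that lost the label by dividing from cells that were never labelled. The litter label of the YFP-LRC array numbered 6 differs from that of the other 2 arrays numbered 6.

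In the intestinal crypt, cells with active Notch signalling make the repressor Hes1, which holds Atoh1 down, and they follow the absorptive path. Cells that escape Notch signalling switch on Atoh1, present Notch ligands to their neighbours and become Paneth, goblet or enteroendocrine cells under further factors. Atoh1 is a basic helix-loop-helix (bHLH) protein that binds E-boxes in DNA as a dimer with an E protein (Tcf3, Tcf4 or Tcf12), while Id proteins capture E proteins and block such dimers.

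The upstream sequences of Atoh1, Foxa1 and Klf4 are shown because Atoh1 and Foxa1 are the members whose gene values differed between populations, and Klf4 is a member whose 3 brightest probe sets differed while its gene value did not pass the test. They are the 250 bases before the RefSeq start site on GRCm38.p6, 5' to 3' on the gene's strand, and 9 of the 10 members matched an entry of that table. The array values themselves come from probe sets of the mm9 build and carry no coordinates here. For Atoh1 (chr6:64728875-64729124, + strand) capitals mark CACGNG, a letter pattern bound by Hes-type repressors, and for Foxa1 (chr12:57546112-57546361, - strand) and Klf4 (chr4:55532476-55532725, - strand) they mark CANNTG, the E-box.
Atoh1: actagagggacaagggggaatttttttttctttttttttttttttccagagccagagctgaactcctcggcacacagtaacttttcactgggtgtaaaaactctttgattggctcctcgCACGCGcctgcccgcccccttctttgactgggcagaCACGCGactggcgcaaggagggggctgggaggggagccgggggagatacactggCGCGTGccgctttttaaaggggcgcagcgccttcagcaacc
Foxa1: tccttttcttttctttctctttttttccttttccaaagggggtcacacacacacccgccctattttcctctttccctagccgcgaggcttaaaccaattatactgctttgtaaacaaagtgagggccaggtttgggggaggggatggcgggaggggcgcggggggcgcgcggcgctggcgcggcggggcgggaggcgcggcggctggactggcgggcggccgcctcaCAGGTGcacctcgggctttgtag
Klf4: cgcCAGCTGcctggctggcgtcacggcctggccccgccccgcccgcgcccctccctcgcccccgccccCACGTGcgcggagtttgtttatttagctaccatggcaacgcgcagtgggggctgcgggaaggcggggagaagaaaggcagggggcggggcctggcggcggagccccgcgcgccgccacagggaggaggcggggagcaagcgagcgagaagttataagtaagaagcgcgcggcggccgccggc
Both strands were searched. The Atoh1 window held 3 matches to CACGNG, 131, 95 and 41 bases before the start site, and 0 matches to CANNTG. Of 32851 windows of this length, 23.5% held at least 1 CACGNG and 1.11% held 3 or more. The Foxa1 window held 1 CANNTG, 23 bases before the start, and the Klf4 window held 2, at 247 and 182 bases, the first of them a CAGCTG and the second overlapping a CACGNG match. CANNTG occurred in 66.2% of all windows and CAGCTG in 13%. A match describes the letters and is not evidence that a factor binds there.

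The LCC arrays were less uniform than the others. Their median probe set signal also lay lower, at 6.40 to 6.66, beside 6.63 to 6.77 on Paneth arrays and 6.65 to 6.73 on YFP-LRC arrays. Differences from LCC are not corrected for this offset except where centring or a second quantile normalization is named. The residual spread, the variation of an array around what the rest of the series gives, was 0.279 to 0.557 on LCC arrays, 0.242 to 0.376 on Paneth arrays and 0.257 to 0.349 on YFP-LRC arrays, and the 4 LCC arrays of mice 2, 3, 5 and 6 stood apart. The sort was checked on marker genes. Muc2, the main goblet mucin, had means of 9.88 in LCC, 11.17 in YFP-LRC and 11.46 in Paneth, and the mean over 7 goblet markers was 9.63, 10.02 and 10.15 in that order, with Zg16 (9.67, 8.96 and 8.76) and Tff3 (10.64, 10.30 and 10.56) highest in LCC. Lgr5, the stem cell receptor, had 6.96, 8.57 and 9.23 in the same order, and the mean over 6 crypt base stem markers was 7.15, 7.65 and 7.68, with Ascl2 (6.07, 5.96 and 5.57) and Rgmb (7.44, 7.27 and 7.32) highest in LCC. The Paneth gene Lyz1 had 13.09, 13.13 and 13.43. The lysozyme signal was high in all 3, so its level does not mark the Paneth gate, while the mean over 8 Paneth markers was 10.51 to 11.29 on Paneth arrays, 9.61 to 10.49 on YFP-LRC arrays and 8.67 to 9.55 on LCC arrays. The tuft kinase Dclk1 was at 8.91, 9.53 and 10.25, the enteroendocrine granule protein Chga at 8.17, 8.54 and 7.25, and the blood cell phosphatase Ptprc at 6.35, 5.69 and 7.68, again for LCC, YFP-LRC and Paneth. Tyrobp, of the same blood cell list as Ptprc, was lowest in Paneth (7.35, 6.46 and 6.33). In Paneth against LCC, 4 of the 10 blood cell markers were called higher and 2 lower, with a list median of -0.13, where 14.5% of all genes were called. Over all 10 blood cell markers the mean was 6.49 to 6.95 on Paneth arrays, 6.20 to 6.77 on LCC arrays and 5.95 to 6.21 on YFP-LRC arrays, and 7 tuft markers ran from 8.00 to 8.86, 7.04 to 7.61 and 7.25 to 7.93. The T cell gene Cd3e was at 6.35 to 6.76. The part of these markers in the results was not tested. In bulk RNA from sorted cells, fewer cells of a type and less RNA per cell cannot be told apart.

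Atoh1, which the gut needs to make Paneth, goblet and enteroendocrine cells, was higher in both YFP-LRCs and Paneth cells than in LCCs, by 1.91-fold and 1.81-fold. In LCCs its lowest, median and highest values were 6.04, 6.82 and 7.37. In YFP-LRCs they were 7.18, 7.75 and 8.08. In Paneth cells they were 6.97, 7.71 and 8.06. The LCC values lay lowest, but the groups overlapped: 1 YFP-LRC array and 2 Paneth arrays read below the highest LCC array, that of mouse 6. The YFP-LRC minus LCC difference was 0.93 ± 0.22 (SE, n = 6 arrays per population, 95% interval 0.47 to 1.4, limma adjusted p = 0.0194), and YFP-LRC read above LCC in 6 of 6 mice, by 0.42 to 1.76. The Paneth minus LCC difference was 0.86 ± 0.22 (interval 0.39 to 1.33, limma adjusted p = 0.0154), positive in 5 of 6 mice, with mouse 1 at -0.02. Between YFP-LRC and Paneth the Atoh1 difference was 0.07, with an interval of -0.39 to 0.54 (limma adjusted p = 0.995), so a difference of up to about that width either way was not excluded. Both comparisons against LCC use the same 6 LCC arrays and are not independent.

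**Figure D1:**
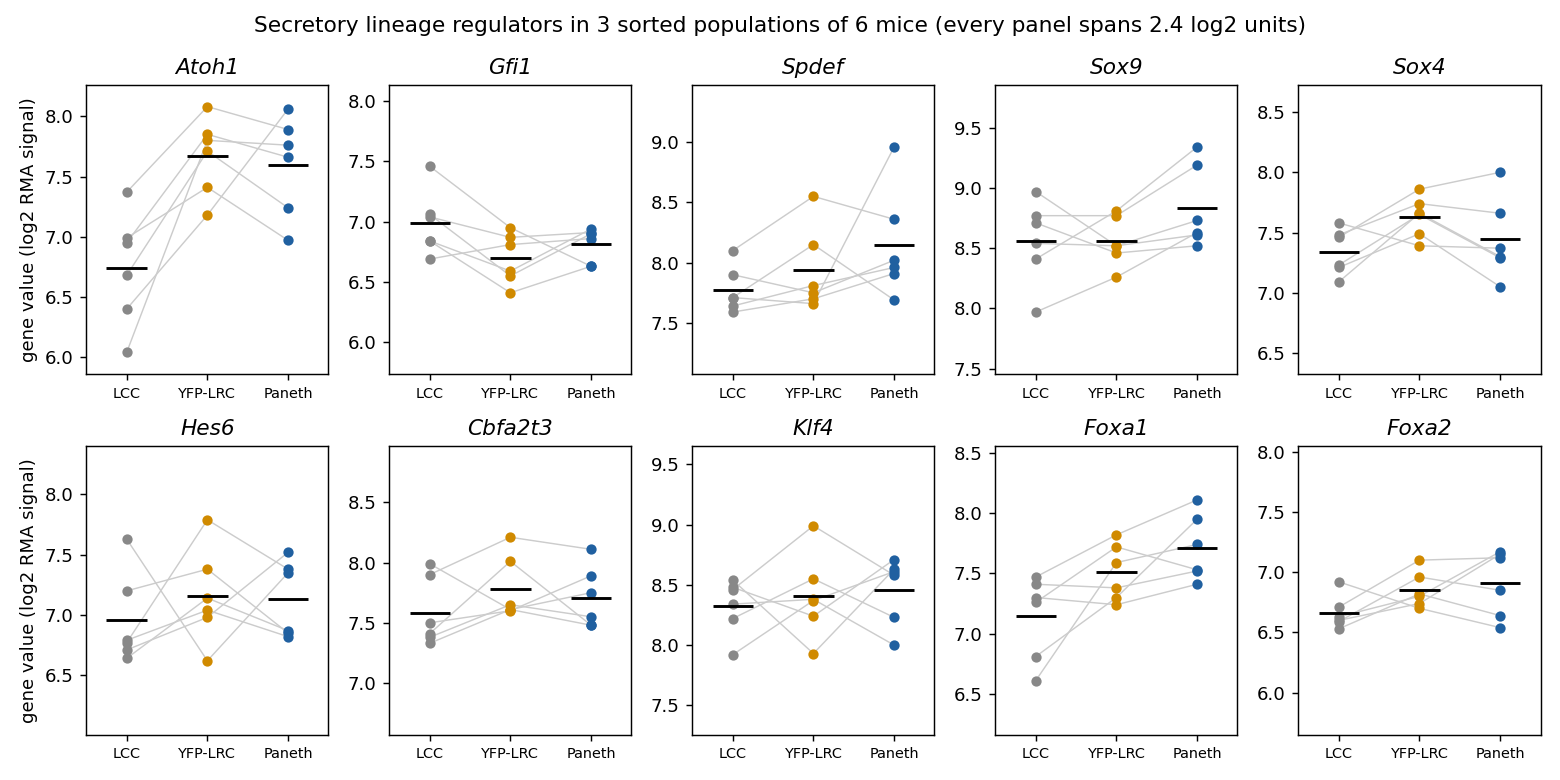
The log2 RMA gene value of each member (vertical axis; every panel spans 2.4 log2 units) in LCC, YFP-LRC and Paneth cells, with 1 point per array, a grey line joining the arrays of 1 mouse and a black bar at the mean of 6. Atoh1 has a mean of 6.74 in LCC, 7.67 in YFP-LRC and 7.60 in Paneth, while the points of most other members overlap widely.

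The Atoh1 calls held without any 1 array, with adjusted p up to 0.0472 for YFP-LRC and 0.0426 for Paneth. They were lost when whole mice were left out: for YFP-LRC without mouse 2, 3, 4 or 5 (0.0703, 0.0933, 0.0543 and 0.0519), and for Paneth without mouse 3 or 5 (0.0883 and 0.0855). A second quantile normalization ended both (0.0700 and 0.0968), as did a fit that kept no LCC array but 1 and 4 (0.373 and 0.262), where the differences were still 0.84 and 0.76, and the residual spread as a covariate ended the YFP-LRC call (a difference of 1.15, 0.109).

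Foxa1, a forkhead pioneer factor that with Foxa2 acts on goblet and enteroendocrine genes, was the other member called, in Paneth against LCC alone. Its lowest, median and highest values were 6.61, 7.28 and 7.47 in LCC, 7.41, 7.64 and 8.11 in Paneth, and 7.24, 7.48 and 7.82 in YFP-LRC. Paneth arrays lay at the top of the range and overlapped the LCC arrays at the edge, with the lowest Paneth array below the highest LCC array. The Paneth minus LCC difference was 0.57 ± 0.17 (1.48-fold, limma adjusted p = 0.0323), positive in 6 of 6 mice by 0.11 to 1.14. For YFP-LRC minus LCC it was 0.37 (interval 0.01 to 0.72, adjusted p = 0.193), positive in 4 of 6 mice. YFP-LRC minus Paneth was -0.20 (interval -0.56 to 0.16, adjusted p = 0.994), so the call in 1 comparison and not in the other does not show that the populations differ. The Foxa1 call was lost without LCC 4 (0.0607), LCC 5 (0.0768), Paneth 4 (0.0571), Paneth 5 (0.0739) or Paneth 6 (0.0745), and without any of mice 2, 4, 5 and 6. It was also lost with the mean over probe sets (0.17, 0.329), bright probe sets alone (0.40, 0.0916), a second quantile normalization (0.27, 0.361), arrays centred on their median (0.46, 0.0836), these populations fitted alone (0.0635) and a fit without LCC 2, 3, 5 and 6 (0.78, 0.151).

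Counted over the members, 1 of 10 was called in YFP-LRC against LCC, where 7.24% of all genes were called (6.33% higher), and 2 of 10 in Paneth against LCC, where 14.5% were (12% higher), and every call of a member was in the higher direction. Both shares are near those of all genes, so the counts say nothing particular of the group. In YFP-LRC against Paneth limma called 0 of 10 members, 0 of them also at an unadjusted p under 0.05, where 0.355% of all genes were called. The median difference over the 10 members was 0.19, 0.21 and -0.06 in the 3 comparisons, beside 0.04, 0.03 and 0.00 over all genes. Over the 8311 genes above the median level, where the members lie, it was 0.23, 0.26 and -0.02. The members thus did not stand out from genes of like level.

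**Figure D2:**
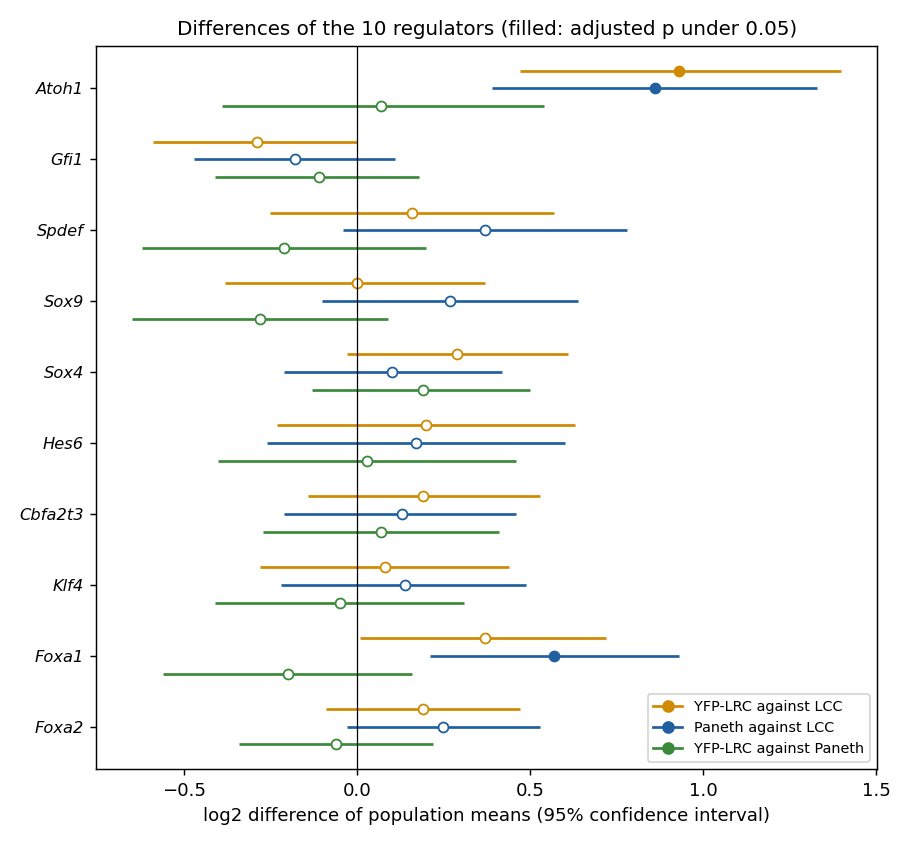
Differences of population means in log2 units (horizontal axis) with 95% confidence intervals for the 10 members, in YFP-LRC against LCC, Paneth against LCC and YFP-LRC against Paneth; filled points have an adjusted p under 0.05 over all genes. Atoh1 is filled in both comparisons against LCC (0.93 and 0.86) and Foxa1 in Paneth against LCC (0.57); no point is filled in YFP-LRC against Paneth.

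The factors that act beside or below Atoh1 in the Paneth and goblet branch did not pass the test. Gfi1, a zinc finger repressor that keeps Paneth and goblet cells from the enteroendocrine path, read 6.69, 6.94 and 7.46 (lowest, median, highest) in LCC, 6.41, 6.70 and 6.95 in YFP-LRC and 6.63, 6.88 and 6.94 in Paneth. Its values overlapped and were, on the mean, lowest in YFP-LRC: the difference from LCC was -0.29 (interval -0.59 to 0.00, adjusted p = 0.204), negative in 5 of 6 mice, and that of Paneth from LCC -0.18 (interval -0.47 to 0.11). Gfi1 was also the member whose values moved most with the residual spread of the arrays (r = 0.61 over 18 arrays, against -0.39 for Atoh1). These arrays share array quality and mouse, and the spread also differs between populations. The part of array quality was not tested, since the covariate fit cannot separate it from population.

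Spdef, an ETS factor needed for goblet and Paneth cell maturation, read 7.59, 7.71 and 8.10 in LCC, 7.66, 7.78 and 8.55 in YFP-LRC and 7.69, 7.99 and 8.96 in Paneth. The highest array was that of Paneth 5, and the 3 groups overlapped. Paneth minus LCC was 0.37 (interval -0.04 to 0.78, adjusted p = 0.205) with 5 of 6 mice positive, and YFP-LRC minus LCC was 0.16 (interval -0.25 to 0.57). Klf4, a zinc finger factor of goblet cell maturation, had a gene value of 7.92, 8.40 and 8.54 in LCC, 7.93, 8.37 and 8.99 in YFP-LRC and 8.00, 8.60 and 8.71 in Paneth. Its differences were 0.08 (interval -0.28 to 0.44) and 0.14 (interval -0.22 to 0.49) against LCC. These are ranges that overlap almost wholly, but the Klf4 gene value pools probe sets that differed from LCC in opposite directions.

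Sox9, an HMG-box factor of the crypt base that Paneth cells require, read 7.97, 8.63 and 8.97 in LCC, 8.26, 8.52 and 8.81 in YFP-LRC and 8.52, 8.68 and 9.34 in Paneth. In 6 of 6 mice the YFP-LRC array read below the Paneth array, by 0.06 to 0.53, yet the mean difference of -0.28 (interval -0.65 to 0.09) had an adjusted p of 0.99. Paneth minus LCC was 0.27 (interval -0.10 to 0.64) and YFP-LRC minus LCC was 0.00 (interval -0.38 to 0.37). Sox4, its relative in the enteroendocrine and tuft branch, read 7.09, 7.35 and 7.58 in LCC, 7.39, 7.66 and 7.86 in YFP-LRC and 7.05, 7.34 and 8.00 in Paneth. YFP-LRC minus LCC was 0.29 (interval -0.03 to 0.61, adjusted p = 0.245), positive in 5 of 6 mice, and Paneth minus LCC was 0.10 (interval -0.21 to 0.42).

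Hes6, a Hes family protein that counters Hes1 and marks secretory progenitors, read 6.64, 6.78 and 7.63 in LCC, 6.62, 7.09 and 7.79 in YFP-LRC and 6.82, 7.11 and 7.52 in Paneth. Single mice differed by -1.02 to 1.02 between YFP-LRC and LCC, and the mean difference was 0.20 (interval -0.23 to 0.63). Cbfa2t3 encodes the corepressor Mtg16 of the ETO family, and its values of 7.33, 7.45 and 7.99 in LCC, 7.60, 7.63 and 8.21 in YFP-LRC and 7.48, 7.65 and 8.11 in Paneth overlapped. It differed by 0.19 (interval -0.14 to 0.53) in YFP-LRC and 0.13 (interval -0.21 to 0.46) in Paneth against LCC. Foxa2, the partner of Foxa1, read 6.53, 6.62 and 6.92 in LCC, 6.70, 6.81 and 7.10 in YFP-LRC and 6.54, 6.99 and 7.17 in Paneth, with differences of 0.19 (interval -0.09 to 0.47) and 0.25 (interval -0.03 to 0.53) against LCC. For these 8 members, changes within the intervals given were not excluded.

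Single probe sets differed from the gene values. An exon array reads a gene through many probe sets, most of one exon or a part of it, and the median over them hides a few bright ones. Of the 105 probe sets, 10 were called in YFP-LRC against LCC (9 higher and 1 lower), where 2.64% of all probe sets were (2.13% higher and 0.503% lower), and 19 in Paneth against LCC (16 higher and 3 lower), where 6.35% were (4.9% higher and 1.45% lower). In YFP-LRC against Paneth 0 were called, where 0.0483% of all probe sets were. Probe sets of 1 gene share its RNA and are not replicates. Calls also depend on level: with the 8311 genes above the median level tested alone, 1310 were called in YFP-LRC and 2037 in Paneth against LCC. No share was taken over probe sets of like level, so the probe set counts are not read as a result about the members. Without any 1 array, 3 of the 10 and 11 of the 19 calls were kept. All 29 differences kept their sign against LCC 1 and 4 alone, but 9 of 10 and 14 of 19 were smaller there than against LCC 2, 3, 5 and 6. In the fit that kept only these 2 LCC arrays, 0 were called. The split is no test: the calls had used LCC 1 and 4, which favours a kept sign. LCC 2, 3, 5 and 6 stood apart by their distance from a median over all populations, which favours larger differences there.

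**Figure D3:**
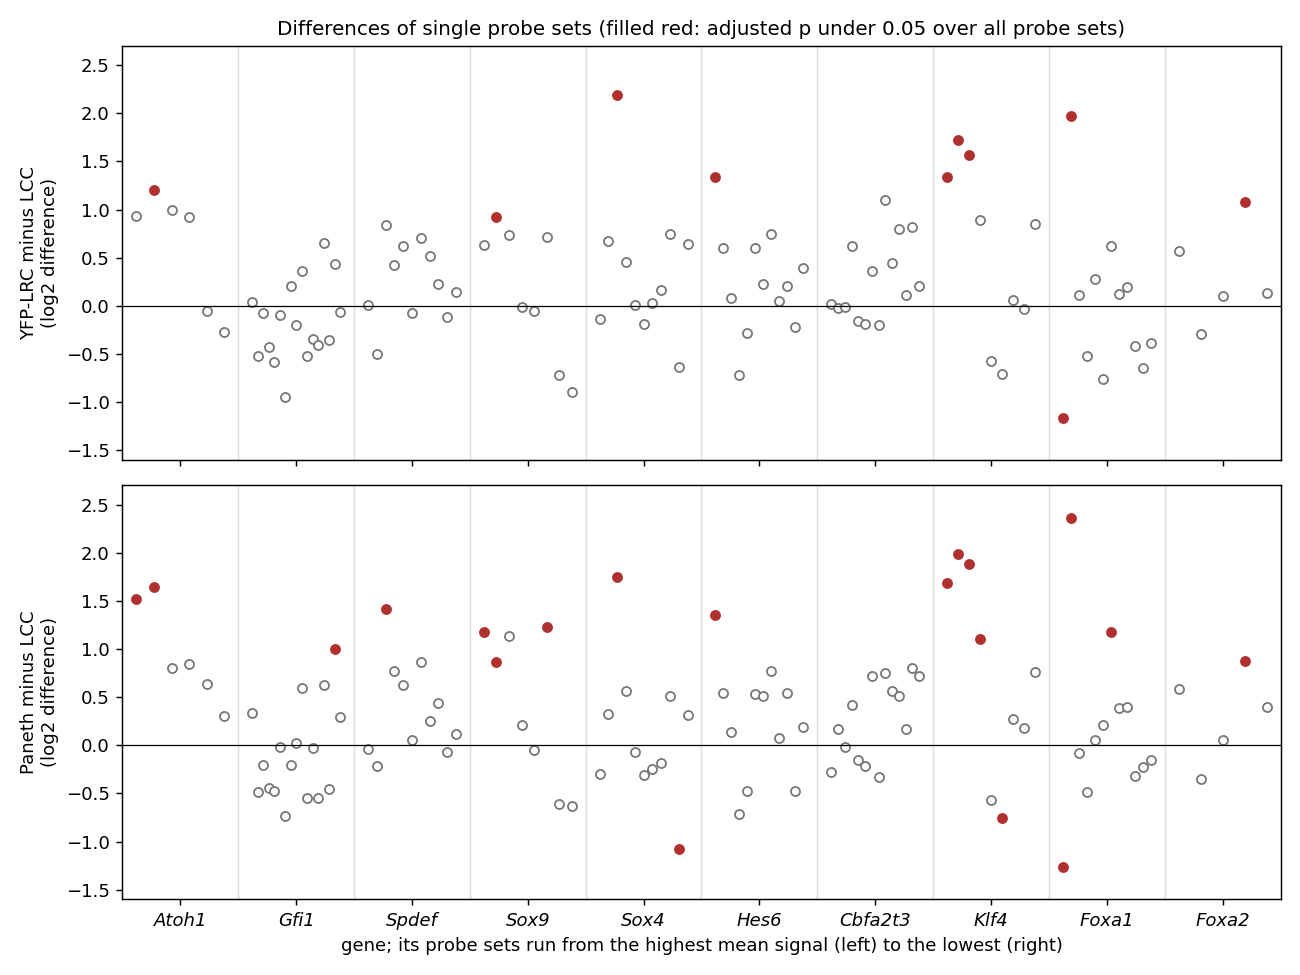
Differences of single probe sets in log2 units (vertical axis) of YFP-LRC from LCC (top) and Paneth from LCC (bottom), with the probe sets of each gene from the highest mean signal at left to the lowest at right; filled red points have an adjusted p under 0.05 over all probe sets. The 3 brightest probe sets of Klf4 are filled and lie between 1.34 and 1.99, while the brightest of Foxa1 lies at -1.17 and -1.26 beside its next at 1.97 and 2.36.

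In Klf4 the 3 brightest probe sets were higher in both populations, while its dimmer ones were mixed. Brightness is the mean over all arrays, so the ranking itself favours probe sets that read higher in YFP-LRC and Paneth. The brightest, 4307436, read 8.55, 9.14 and 10.72 (lowest, median, highest) in LCC, 10.04, 10.68 and 11.38 in YFP-LRC and 10.65, 11.13 and 11.51 in Paneth. LCC 1 and 4 read 10.06 and 10.72, inside the YFP-LRC range, and LCC 2, 3, 5 and 6, the arrays that stood apart, read 8.55 to 9.20, below every other array. In Paneth the 3 differed from LCC by 1.69, 1.99 and 1.88 (limma adjusted p = 0.00812, 0.0114 and 0.0062), each kept without any 1 array, while probe set 4894339 was lower by 0.76 (a difference of -0.76, adjusted p = 0.0265, lost without LCC 3, LCC 6 or Paneth 2). In YFP-LRC they differed by 1.34, 1.72 and 1.57 (0.0427, 0.0396 and 0.0281), and each of these calls was lost without any 1 of 7 or more arrays, LCC 3, LCC 5 and YFP-LRC 1, 2, 4 and 5 among them for all 3. Against LCC 1 and 4 alone the 3 differences were 0.34, 0.57 and 0.48 in YFP-LRC and 0.69, 0.85 and 0.78 in Paneth, and against the other 4 LCC arrays they were 1.84, 2.29 and 2.12, and 2.19, 2.56 and 2.43. The Klf4 differences were thus larger against the LCC arrays that stood apart, which by their distance from the series median also tend to differ more from the other populations. The part of array quality in this was not tested. It cannot be told apart from a true difference of LCC or a true spread between mice.

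In Sox4 the probe set 5205829, the third brightest, was higher by 2.19 ± 0.37 in YFP-LRC (adjusted p = 0.00765) and by 1.75 ± 0.37 in Paneth (adjusted p = 0.0112), both kept without any 1 array. Its values were 5.66, 7.32 and 8.41 in LCC, 8.81, 9.39 and 9.98 in YFP-LRC and 7.94, 9.05 and 9.71 in Paneth. The YFP-LRC arrays lay wholly above the LCC arrays and the Paneth arrays overlapped them. When set against LCC 1 and 4 alone, it differed by 1.59 and 1.15. The other Sox4 probe sets were mixed: the brightest, 4781419, differed by -0.14 in YFP-LRC and -0.30 in Paneth. In Paneth 5176550 was called lower (-1.08, limma adjusted p = 0.0479, lost without any 1 of 13 arrays). Of the 11 Sox4 probe sets, 3 read below 0 in YFP-LRC and 6 in Paneth against LCC.

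In Sox9 the brightest probe set, 5608767, was higher in Paneth by 1.18 ± 0.21 (adjusted p = 0.00442) and 5025110 in both, by 0.92 ± 0.19 in YFP-LRC (0.0184) and 0.87 ± 0.19 in Paneth (0.0126), all kept without any 1 array. Probe set 5608767 read 8.74, 9.46 and 10.23 in LCC, 9.80, 10.14 and 10.31 in YFP-LRC and 10.62, 10.67 and 10.69 in Paneth. The Paneth arrays lay above all others and within a very small range. From LCC 1 and 4 alone 5608767 differed by 0.68 in Paneth and 0.13 in YFP-LRC, and 5025110 by 0.99 and 1.04. The brightest Hes6 probe set, 5356835, was higher by 1.34 in YFP-LRC (0.0269, lost if LCC 5, or YFP-LRC 1, 2, 3 or 4, was left out) and by 1.35 in Paneth (0.0145, kept without any 1 array). Of 8 Sox9 probe sets, 4 read below 0 in YFP-LRC and 3 in Paneth against LCC. Of 12 Hes6 probe sets, 3 read below 0 in each.

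Foxa1 was split at its 2 brightest probe sets. Probe set 4395601 read 6.21, 6.94 and 8.73 in LCC, 8.51, 8.94 and 9.65 in YFP-LRC and 8.63, 9.45 and 10.14 in Paneth, with only LCC 1 (8.73) inside the range of the others. It was higher by 1.97 ± 0.38 in YFP-LRC (adjusted p = 0.0131) and 2.36 ± 0.38 in Paneth (adjusted p = 0.002), both kept without any 1 array. The brightest, 5070162, ran the other way, at 10.60, 11.61 and 12.45 in LCC, 10.04, 10.41 and 11.24 in YFP-LRC and 10.03, 10.42 and 10.59 in Paneth. Its difference was -1.26 in Paneth (0.0137, kept without any 1 array) and -1.17 in YFP-LRC (0.0338, lost if LCC 3, 5 or 6 was left out, or any YFP-LRC array but 6). With LCC 1 and 4 alone for comparison, 4395601 differed by 1.58 and 1.97, and 5070162 by -0.45 and -0.54. The Foxa1 gene value is the median over 12 probe sets of which 6 read above 0 and 6 below 0 in each of these comparisons.

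Atoh1 was the more uniform gene: all 6 of its probe sets read above 0 in Paneth against LCC, by 0.30 to 1.65, and 4 of 6 in YFP-LRC against LCC. Its 2 brightest, 5167247 and 5349949, were higher in Paneth by 1.52 and 1.65 (adjusted p = 0.00639 and 0.00284), both kept without any 1 array. In YFP-LRC 5349949 was higher by 1.20 (0.0294, lost if LCC 3, 5 or 6, or YFP-LRC 2, 3 or 5, was left out) and 5167247 differed by 0.93 (0.0911). The difference of 5167247 from LCC 1 and 4 alone was 1.29 in Paneth and 0.69 in YFP-LRC. Gfi1 had 1 probe set called among 17, Spdef 1 among 11, Foxa2 1 among 5 and Cbfa2t3 0 among 14 in Paneth against LCC.

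The gene value can instead be taken from the 3 brightest probe sets, a choice made after seeing the data. Brightness was the mean over all arrays, which favours probe sets that read higher in YFP-LRC and Paneth. Sox4 5205829 (7.22 in LCC) thus ranked above 4918905 (7.82), Klf4 4571010 (8.47) above 4932647 (8.99) and Foxa1 4395601 (7.08) above 4652699 (8.31). For Atoh1 and Sox9 the same 3 probe sets led in LCC. Calls with a ranking on LCC arrays alone were not tested, so higher calls of Sox4, Klf4 and Foxa1 may owe to the ranking. On that scale Atoh1, Sox9, Sox4 and Klf4 were called higher in YFP-LRC against LCC (1.16, 0.75, 0.80 and 1.49, limma adjusted p = 0.0182, 0.0182, 0.0179 and 0.0203), where 5.21% of all genes were called (3.77% higher). In Paneth against LCC the same 4 genes and Foxa1 were called higher, by 1.70 for Atoh1, 1.02 for Sox9, 0.65 for Sox4, 1.70 for Klf4 and 1.21 for Foxa1 (0.000691, 0.00147, 0.0287, 0.00556 and 0.00582), where 10.1% were (6.64% higher). The Atoh1 difference of YFP-LRC from Paneth became -0.55 on that scale and was not called, among 0.104% of all genes that were. The choice of summary thus moved 3 members across the threshold in each comparison and left Gfi1, Spdef, Hes6, Cbfa2t3 and Foxa2 below it.

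Tcf12 and Tcf4, 2 of the 3 E proteins that pair with Atoh1, were higher in the same populations, and Tcf3 was not called. Of 7 bHLH partners and inhibitors, these 2 were called higher in both comparisons against LCC and 0 were called lower, while the list medians were -0.03 and -0.03. Among all genes 6.33% were called higher in YFP-LRC and 12% in Paneth against LCC. Tcf12 read 6.88, 7.67 and 8.59 in LCC, 8.28, 8.51 and 8.85 in YFP-LRC and 8.67, 8.76 and 9.56 in Paneth, so Paneth arrays lay wholly above LCC arrays. It was higher by 1.35 ± 0.23 in Paneth (limma adjusted p = 0.000986) and by 0.93 ± 0.23 in YFP-LRC (0.0227, lost without LCC 6 or YFP-LRC 5, or without mouse 2, 3, 5 or 6). Tcf4 read 6.26, 6.60 and 6.67 in LCC, 6.95, 7.25 and 7.65 in Paneth and 7.12, 7.26 and 7.57 in YFP-LRC, with no overlap of either with LCC. It was higher by 0.74 ± 0.14 in YFP-LRC (0.00615) and 0.73 ± 0.14 in Paneth (0.00203), both kept without any 1 array or mouse. On the 3 brightest probe sets Tcf4 was not called (0.56 and 0.37, adjusted p = 0.263 and 0.432). Against LCC 1 and 4 alone Tcf12 differed by 0.38 in YFP-LRC and 0.80 in Paneth, and Tcf4 by 0.63 and 0.61. A fit with these as the only LCC arrays ended all Tcf12 and Tcf4 calls. The residual spread as a covariate ended both Tcf4 calls and the Tcf12 call in YFP-LRC. That Tcf12 call was also lost with a second quantile normalization and with these populations fitted alone. The third E protein, Tcf3, differed by -0.03 and -0.15 (0.916 and 0.476), and Id1, Id2, Id3 and Id4, which capture E proteins, were not called in any comparison, with Id2 at 0.76 in Paneth against LCC (adjusted p = 0.111).

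**Figure D4:**
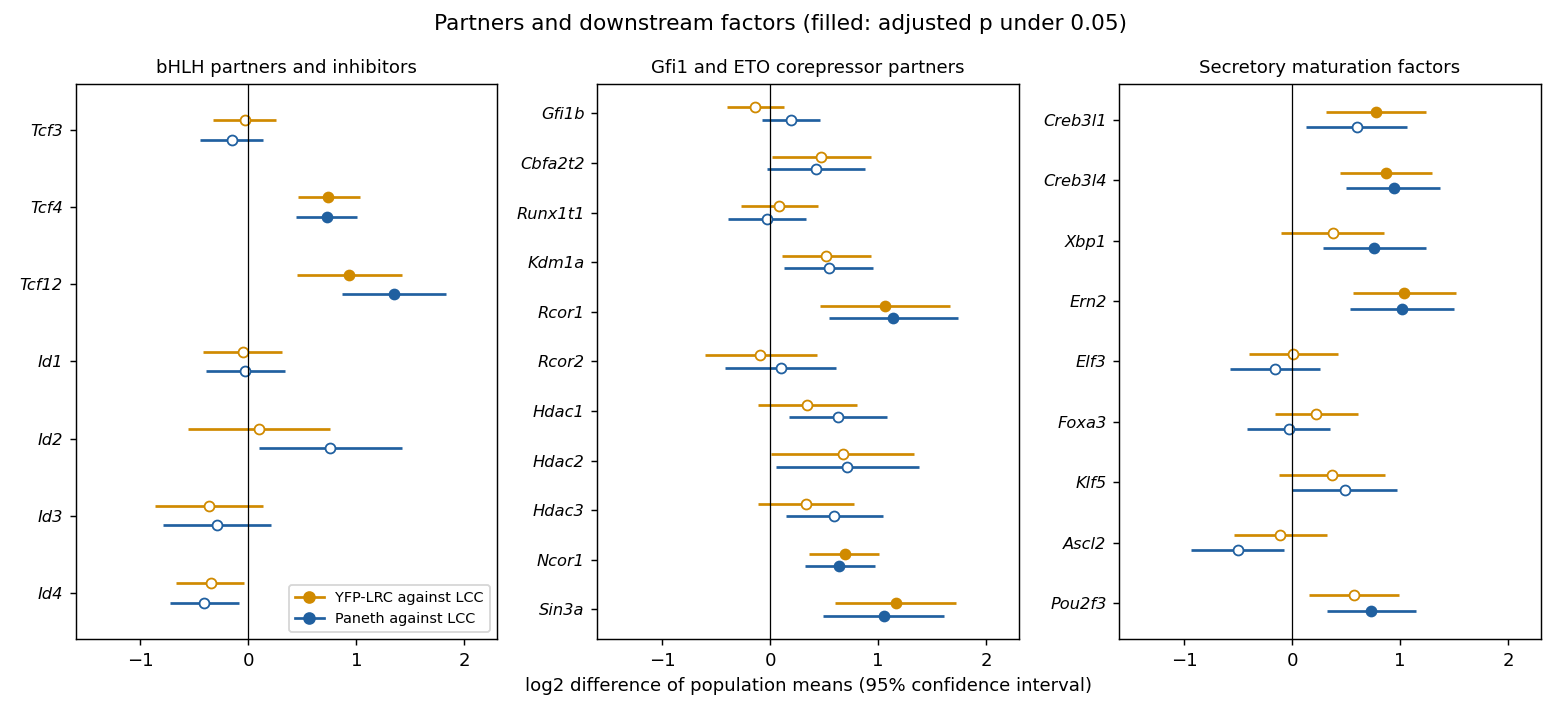
Differences from LCC in log2 units (horizontal axis) with 95% confidence intervals for bHLH partners and inhibitors, Gfi1 and ETO corepressor partners, and secretory maturation factors, in YFP-LRC and in Paneth; filled points have an adjusted p under 0.05 over all genes. Tcf4 and Tcf12 are filled in both, as are Rcor1, Ncor1 and Sin3a among the corepressors and Creb3l4 and Ern2 among the maturation factors.

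Corepressors with which Gfi1 and the ETO proteins work were partly higher too. Of 11 measured, 3 were called higher and 0 lower in both comparisons against LCC, with list medians of 0.47 in YFP-LRC and 0.59 in Paneth. Among all genes 6.33% and 12% were called higher, with medians of 0.04 and 0.03. Among the 8311 genes above the median level, 1233 and 1884 were called higher, with medians of 0.23 and 0.26. Sin3a, the scaffold of a histone deacetylase complex, was higher by 1.16 ± 0.27 in YFP-LRC (0.0169) and 1.05 ± 0.27 in Paneth (0.0137). Ncor1, the nuclear receptor corepressor, was higher by 0.69 ± 0.16 and 0.64 ± 0.16 (0.0153 and 0.0102), and Rcor1, which holds the demethylase Kdm1a, by 1.06 ± 0.29 and 1.14 ± 0.29 (0.0335 and 0.0129). For Rcor1 the YFP-LRC call ended when LCC 2, 3, 5 or 6, or YFP-LRC 1, 2, 4 or 5, was left out (adjusted p up to 0.0759), and the other corepressor calls were kept without any 1 array. Leaving out 1 mouse ended the calls of Sin3a (mouse 2, 3 or 5 in both), Ncor1 (mouse 2, 3 or 5 in YFP-LRC, 5 or 6 in Paneth) and Rcor1 (mouse 2, 3, 5 or 6 in YFP-LRC, 2, 3 or 5 in Paneth). A second quantile normalization ended those of Ncor1 and Rcor1 in both. Kdm1a itself, which Gfi1 recruits, differed by 0.52 and 0.54 (0.104 and 0.0684), and the Gfi1 relative Gfi1b, a tuft cell factor, by -0.14 and 0.19 (0.545 and 0.324). On the 3 brightest probe sets none of Sin3a, Ncor1 and Rcor1 was called (adjusted p = 0.105 to 0.648). Against LCC 1 and 4 alone Sin3a differed by 0.43 and 0.32, Rcor1 by 0.24 and 0.32 and Ncor1 by 0.30 and 0.26, so more than 1.5 times less than over all 6 LCC arrays.

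Some factors of secretory maturation were higher as well. Of 9 measured, 3 were called higher in YFP-LRC against LCC and 4 in Paneth against LCC, with 0 lower and medians of 0.38 and 0.60. Among all genes 6.33% and 12% were called higher, with medians of 0.04 and 0.03, or 0.23 and 0.26 for genes above the median level. Ern2, the stress sensor of mucin-making cells, was higher by 1.04 ± 0.23 in YFP-LRC (0.0133, lost without mouse 2 or 3) and 1.02 ± 0.23 in Paneth (0.00679). Creb3l4, a membrane-bound transcription factor, was higher by 0.87 ± 0.21 (0.0194, lost without YFP-LRC 5, or mouse 2 or 5) and 0.94 ± 0.21 (0.00623). Creb3l1, its relative, differed by 0.60 in Paneth (0.0767) and was called in YFP-LRC, at 0.78 ± 0.22 (0.0416, lost without any 1 array except LCC 1 and 4, Paneth 1, 5 and 6 and YFP-LRC 3). In Paneth, Xbp1, which drives the unfolded protein response, was higher by 0.76 ± 0.23 (0.0299, lost without LCC 2 or 6 or Paneth 3, 5 or 6) and Pou2f3, the master factor of tuft cells, by 0.73 ± 0.20 (0.0193, lost without mouse 3, 5 or 6), beside the higher tuft markers of that gate, of whose list it is a gene. From LCC 1 and 4 alone Ern2 differed by 0.79 and 0.77, Creb3l4 by 0.88 and 0.94, Creb3l1 in YFP-LRC by 0.35, and Xbp1 in Paneth by 0.27. A second quantile normalization ended all of these calls but that of Creb3l4 in Paneth. The 3 brightest probe sets ended those of Ern2 in Paneth, Creb3l4 and Creb3l1 in YFP-LRC, and Pou2f3. Centring ended those of Creb3l1 and Pou2f3. The residual spread as a covariate ended the 3 calls in YFP-LRC and those of Xbp1 and Pou2f3. Elf3 and Foxa3 were not called in either comparison against LCC.

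The Notch pathway was called about as often as all genes in YFP-LRC against LCC. Of 24 measured genes, 1 was called higher and 1 lower in YFP-LRC against LCC (7.24% of all genes were called), and 0 higher and 1 lower in Paneth against LCC (14.5%), with medians of 0.04 and -0.09. Hey2, a Notch target, was lower, with differences of -0.54 (0.0335) and -0.46 (0.0422). Its signal was low, with means of 5.34 in LCC, 4.80 in YFP-LRC and 4.88 in Paneth, where the median gene of an array read 6.40 or more. Maml3, a coactivator of Notch, was higher in YFP-LRC by 0.53 (0.0423). For Hey2 the YFP-LRC call ended when LCC 5 or 6, or any YFP-LRC array but 6, was left out, and the Paneth call without LCC 1, 5 or 6, Paneth 2, 3, 4 or 5, or YFP-LRC 1 or 2. Maml3 lost its call without LCC 2, 3 or 6, Paneth 2, 3 or 4, or YFP-LRC 1, 4, 5 or 6. Hes1, the repressor of Atoh1, differed by 0.23 in YFP-LRC and 0.18 in Paneth (0.359 and 0.436), and the ligands Dll1 and Dll4 by 0.05 and 0.11 in YFP-LRC (0.903 and 0.735) and by -0.10 and -0.13 in Paneth (0.732 for Dll1, and Dll4 was not called either). A missing call does not show that Hes1 was unchanged, and the part of Hes1 in the Atoh1 difference was not tested.

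The other branches were compared as well. For reference, 6.33% of all genes were called higher in YFP-LRC against LCC and 12% in Paneth against LCC. Between YFP-LRC and Paneth 0.355% of all genes were called. Of 13 enteroendocrine transcription factors, Etv1 was called higher in YFP-LRC against LCC, at 0.66 (0.0479, lost without any 1 array except LCC 6 and Paneth 4 and 5, and with the replicate block), and Rfx3 in Paneth against LCC, at 0.88 (0.0203, lost without LCC 5 or Paneth 3). Between YFP-LRC and Paneth, Rfx6 was higher in YFP-LRC by 1.34 ± 0.25 (0.0123) and Etv1 by 1.21 ± 0.20 (0.00447), both in 6 of 6 mice and both kept without any 1 array. Rfx6 lost the call without mouse 1, 2 or 5 (adjusted p up to 0.136) and Etv1 without mouse 2 (0.0753). On bright probe sets alone neither was called (0.97 for Rfx6, adjusted p = 0.18, and 0.63 for Etv1, 0.466), nor on the 3 brightest (1.32, 0.291, and 0.07, 1.0). These moved with the enteroendocrine markers, whose mean was 8.43 to 8.93 on YFP-LRC arrays and 7.63 to 7.73 on Paneth arrays, and with Chga, higher in YFP-LRC by 1.30 (0.0123). Neurog3, which starts that branch, differed by -0.16 in YFP-LRC and -0.38 in Paneth from LCC (0.581 and 0.127). Of 9 absorptive factors, Tcf7l2, the Wnt effector, was called in Paneth against LCC alone, at 0.75 (0.0308, lost without LCC 2 or 5 or Paneth 2, 5 or 6).

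Relatives of the members by family were called in both directions, 3 higher and 2 lower of 28 in each comparison against LCC, where 7.24% of all genes were called in YFP-LRC and 14.5% in Paneth. Klf7 was higher in YFP-LRC by 0.79 (0.0214, lost without LCC 5 or 6, or mouse 3, 4, 5 or 6) and in Paneth by 0.91 (0.00499), and Sox17, an endodermal factor, was lower, with differences of -0.59 (0.0285, lost if LCC 3 or 5, or YFP-LRC 3, 4 or 5, was left out) and -0.68 (0.00701). Atoh7, the relative of Atoh1 known from the retina, was lower in YFP-LRC, with a difference of -0.81 (0.0407, lost without LCC 2, 3, 5 or 6, Paneth 3, or YFP-LRC 1, 2, 3, 4 or 5). Sox6 was higher in YFP-LRC by 0.50 (0.0348, lost without LCC 2, 3 or 6, or any YFP-LRC array but 2), and Sox11 was lower in Paneth, with a difference of -0.54 (0.0187, kept without any 1 array and lost without mouse 2, 3, 5 or 6). Klf15 was higher by 0.59 in YFP-LRC (0.0452) and 0.54 in Paneth (0.0432), with the calls lost without any 1 of 12 and 13 arrays, LCC 1, 2, 3, 4 and 6 among them for both. Klf3 was higher in Paneth by 0.64 (0.0445, lost without LCC 2, 5 or 6, any Paneth array but 1 or any YFP-LRC array but 6, and with the replicate block).

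The genes whose profile over the 18 arrays was most like that of Atoh1, by Pearson correlation among 15197 genes with at least 3 probe sets, were Fam114a1 (0.917), Actn1 (0.914), Inpp5j (0.895), Clstn1 (0.892) and Kdm1b (0.890). The same 5 led after each array was centred on its median, and their correlations within populations were 0.730 to 0.856. Among the members the closest pairs were Spdef with Foxa1 (0.71) and Atoh1 with Foxa1 (0.65), followed by Spdef with Cbfa2t3 (0.64), while Gfi1 ran opposite to Atoh1 (-0.27) and within populations the latter was 0.18. These are descriptions over arrays that share mice and array quality.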

How the data were processed

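The authors deposited log2 values of 229581 probe sets on 18 arrays. Per the file headers, they were made with Affymetrix Power Tools 1.12.0 by RMA on core probe sets of the mm9 build, and the submitters' processing notes name RMA too. Per the labels, 8 ng of RNA was amplified per array. All value columns were matched to a sample, with 0 left out. Of the probe sets, 209279 carry 1 gene symbol, and those with several (4446) or none (15856) were left out. Symbols were updated through the RefSeq table of GRCm38.p6: of 16380, 14190 were current, 2145 were synonyms and 45 matched nothing.

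Gene values (median over probe sets, no filter) and single probe sets were tested with limma 3.58.1 in R 4.3.3, with 1 mean per population over 18 arrays, 2-sided, with Benjamini-Hochberg adjustment over all 16358 genes or all 209279 probe sets, called at an adjusted p under 0.05. Errors are standard errors. Precision is set by the 6 arrays of each population. The members and gene lists were chosen with earlier results of these data known. The text names all members, up to 5 called genes of each list per comparison with the largest difference, defining markers, and the 5 genes most like Atoh1. Genes outside that rule (Tcf3, the Id genes, Kdm1a, Gfi1b, Hes1, Dll1, Dll4, Neurog3, Elf3, Foxa3, Zg16, Tff3, Ascl2, Rgmb) were named for their role after their values were seen, and for the marker lists the text departs from the rule, giving defining markers and list means but not every called gene.

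The 3 populations of a number come from the same mouse per the series design text. Deviations from the population means correlated from -0.114 to 0.406 within a mouse, over 0.1 in 6 of 18 pairs. The alternatives were the mouse as a block, other summaries of probe sets, a second quantile normalization, centring, fits of the compared populations alone, array weights, LCC 1 and 4 as the only LCC arrays, the residual spread as a covariate, a mean-variance trend, and leaving out arrays and mice. Those on the 3 brightest probe sets, on single probe sets and on list genes, and the split of LCC arrays, were added after seeing the data. The fit was tested on simulated data for YFP-LRC against LCC over 16358 genes: of 50 genes changed per size, 7 were recovered at a log2 change of 0.5, 32 at 1 and 47 at 1.5, with 8 false among 128 calls. The share of false calls on the deposited arrays, whose residual spread was unequal, was not tested. No scan date or batch is given in the sources used here.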

Additional observations from a re-analysis of the deposited data

How the results depend on the processing

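The replicate block (mouse) changed no member's call: Atoh1 had adjusted p = 0.0195 in YFP-LRC and 0.0151 in Paneth against LCC, and Foxa1 0.0310 in Paneth. It ended the calls of Etv1 (YFP-LRC against LCC) and Klf3 (Paneth against LCC) among the listed genes. Of 10 members in YFP-LRC against LCC, 1 was called, and 4 on the 3 brightest probe sets, and 0 with a second quantile normalization, with LCC 1 and 4 only or with residual spread as a covariate. In Paneth against LCC 2 were called, 5 on the 3 brightest probe sets, 1 on bright probe sets, with centred arrays or with only the 2 populations compared, and 0 with a second quantile normalization or LCC 1 and 4 only. Leaving out 1 array or mouse gave 0 to 1 and 0 to 2. In YFP-LRC against Paneth 0 members and 0 of their probe sets were called under every setting run. Of the members' probe sets, 10 were called in YFP-LRC against LCC, 6 with a second quantile normalization or array weights, 1 with only the 2 populations compared and 0 with LCC 1 and 4 only or the covariate, and leaving out 1 array or mouse gave 1 to 17. In Paneth against LCC 19 were called, 12 with only the 2 populations compared, 11 with array weights, 4 with the covariate and 0 with LCC 1 and 4 only, and leaving out 1 array or mouse gave 8 to 24.

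Signs turned for the following differences, of which those of Galnt12 against LCC are the only ones in which a gene was called under the reported settings. With a second quantile normalization Spdef was -0.14 in YFP-LRC and -0.02 in Paneth against LCC, Cbfa2t3 -0.09 and -0.23, Klf4 -0.21 and -0.25, and in Paneth alone Sox9 -0.11, Sox4 -0.20 and Hes6 -0.06, with Klf4 at 0.04 between YFP-LRC and Paneth. With the 3 brightest probe sets Spdef was -0.18 and -0.12, Sox9 0.75 and Cbfa2t3 -0.02 in YFP-LRC, Foxa2 -0.03 in Paneth, and between YFP-LRC and Paneth Atoh1 was -0.55, Hes6 -0.07, Cbfa2t3 -0.14 and Foxa2 0.04, while Galnt12 was -0.29 in YFP-LRC and -0.10 in Paneth. With bright probe sets Foxa2 was -0.03 in Paneth against LCC, and between YFP-LRC and Paneth Atoh1 was -0.19, Sox4 0.00, Foxa1 0.00 and Foxa2 0.04. With the mean over probe sets Sox9 was 0.16 and Foxa1 -0.05 in YFP-LRC against LCC, and Atoh1 -0.34 and Foxa2 0.00 between YFP-LRC and Paneth. Centring gave Sox4 -0.01 in Paneth and Klf4 -0.02 in YFP-LRC, LCC 1 and 4 only gave Sox9 0.22, Klf4 -0.10 in YFP-LRC and Klf4 -0.05 in Paneth, the covariate gave Sox9 0.38, and array weights gave Hes6 -0.01 between YFP-LRC and Paneth. Leaving out 1 array or mouse gave these ranges between YFP-LRC and Paneth: Atoh1 -0.05 to 0.27, Cbfa2t3 -0.02 to 0.15, Foxa2 -0.13 to 0.01, Hes6 -0.10 to 0.18, Klf4 -0.17 to 0.08 and Spdef -0.35 to 0.01. Against LCC they were -0.03 to 0.22 for Klf4 and -0.12 to 0.08 for Sox9 in YFP-LRC, and -0.01 to 0.18 for Sox4 in Paneth. The causes were not tested.

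Over all genes 1185 were called in YFP-LRC against LCC, but 2128 with the mean over probe sets, 614 with a second quantile normalization, 415 with only the 2 populations compared, 4 with LCC 1 and 4 only and 0 with the covariate (1839 at an unadjusted p under 0.05). In Paneth against LCC 2372 were called, but 3988 with the mean, 452 with the covariate and 156 with LCC 1 and 4 only. In YFP-LRC against Paneth 58 were called, but 106 with array weights, 96 with the mean, 91 with LCC 1 and 4 only and 17 with the 3 brightest probe sets. The share of calls that were higher was 87.3% and 82.5% against LCC, 67.4% and 58.6% with centred arrays, and 61.6% and 55.9% with a second quantile normalization. Centring moved the median of all genes in Paneth against LCC from 0.03 to -0.08. With 2 LCC arrays kept, a lost call also reflects fewer samples.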
